A study of Mus musculus with 4 samples.

Results

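The 35 genes described here, of 27998 in the deposited tables, are a named list: 20 genes carry glucose from the cell surface to lactate and 15 are known targets or sensors of the response to low oxygen. They were counted in 4 droplet single-cell RNA libraries of sorted cells from MMTV-HER2/Neu mice on an FvB background, whose HER2/neu oncogene is placed under the MMTV promoter (from mouse mammary tumor virus), active in mammary epithelium. The early lesion library came from mammary glands and the early lung library from lungs of mice aged 14 to 18 weeks with no palpable tumor. The primary tumor and late lung libraries came from mice over 20 weeks old that carried tumors. All cells had been sorted as CD45- and HER2+, and the labels call all of them breast cancer cells. Each group is 1 library, and how many mice gave each library is not given in the sources used here. Differences between groups therefore have no replicate check and no p-value, and every interval below is a 95% interval for counting error only.

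A cell was a barcode with at least 500 UMIs (a UMI marks 1 captured RNA molecule), at least 250 genes and at most 20% mitochondrial UMIs. This gave 185 early lung, 210 late lung, 1318 early lesion and 434 tumor cells with medians of 772, 811, 2360 and 1658 UMIs and totals of 203676, 412032, 3926447 and 1825842 UMIs, and no 2 libraries shared a cell barcode. In the tumor, 18 cells over 10000 UMIs held 54.5% of all cell UMIs, and in the late lung 8 such cells held 42.2%, so values without them are given where they differ. Against their label, the lung libraries consisted mainly of lung cell classes, with 0 early and 6 late lung cells in luminal-like clusters, while 1065 lesion and 323 tumor cells were luminal-like (mammary milk-duct type). Summed alveolar type 1 markers stood at 15400 and 10780 CPM (counts for every 1000000 cell UMIs) in early and late lung, 49.7 CPM in the lesion and 3517 CPM in the tumor, where Rtkn2, Pdpn and Clic5 were at 0. Luminal markers stood at 795, 2298, 33670 and 78160 CPM in the same order, with Cldn4 and Ltf at 0 in both lung libraries. Ptprc, the CD45 gene, was at 0 in both lung libraries and the tumor. Of the 7 leukocyte markers, Ptprc among them, 4 had UMIs in each lung library. All 7 together stood at 230.8 CPM in early lung, 567.9 CPM in late lung, 27.25 CPM in the lesion and 1.643 CPM in the tumor. How far cell types account for a difference between a lung and a mammary library was not tested. Milk protein genes took 15.2% of lesion and 6.61% of tumor UMIs, which lowers the CPM of every other gene more in the lesion.

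Glycolysis splits glucose into pyruvate in the cytoplasm, and lactate dehydrogenase can then reduce pyruvate to lactate. Several steps have isozymes, encoded by different genes, that differ in tissue range and regulation. When oxygen is scarce, the prolyl hydroxylases encoded by the Egln genes no longer mark HIF transcription factors for destruction, and HIF raises genes for glucose uptake, glycolysis, acid export and blood vessel growth. Mammary epithelium also takes up glucose to make the lactose of milk.

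The members together held 0.310% of early lung UMIs, 0.364% of late lung UMIs, 0.470% of lesion UMIs and 1.14% of tumor UMIs. In cells thinned to 1000 UMIs, the median cell held 3 member UMIs in each lung library, 4 in the lesion and 12 in the tumor. Over all cells, aldolase C (Aldoc), the HIF prolyl hydroxylase gene Egln3 and the carbonic anhydrase genes Car9 and Car12 stood furthest above the lesion in the tumor. Ndrg1, a stress-induced differentiation gene, stood far below it, and glyceraldehyde phosphate dehydrogenase (Gapdh) differed little.

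The HIF complex binds DNA around the core ACGTG or GCGTG, so promoters were searched for these letters on both strands (CACGT and CACGC on the printed strand). The search covered the 250 bases before each RefSeq transcript start on GRCm38.p6. Of the 35 members, 34 had a promoter entry, and Ndrg1 did not. At least 1 start carried a core in 29 of these 34 genes (85.3%), against 41.5% of all 27025 genes searched. The list was chosen partly as known targets of the low-oxygen response, and the 27025 genes were not matched to it. The gap between these shares is therefore not a result of these data. Among the 12 members called higher in the tumor than in the lesion, 11 carried a core and Car12 did not. Among the other 22 members, 18 carried one. A palindrome such as CACGTG holds both ACGTG and CACGT and counts under each. For the 11 members called higher that carried a core, 1 window with a core is used. The core nearest that window's own start is shown in 25 bases, 5′ to 3′ along the gene, with cores in capitals. Aldoc has a further start with a core 39 bases before it, not shown. GENCODE M21 exons overlap the used window of Aldoc, Car9, Egln1, Hk1, Pfkp and Pkm, but not that of Aldoa, Egln3, Hk2, Ldhb and Pgk1.
Aldoc (chr11:78323013-78323037, plus strand, 50 bases before the start): acctctgaggGCGTGgccttaccct
Aldoa (chr7:126799366-126799390, minus strand, 126 bases before the start): tggctcgagtCACGTcctagcgggg
Hk1 (chr10:62340419-62340443, minus strand, 12 bases before the start): gtgccacCACGCGTGaccgcgcgct
Hk2 (chr6:82774492-82774516, minus strand, 52 bases before the start): tgagcacatcCACGTcactgtccgg
Pfkp (chr13:6648780-6648804, minus strand, 23 bases before the start): ctcgggcgggGCGTGggcggctcct
Pgk1 (chrX:106186959-106186983, plus strand, 131 bases before the start): atggaagtagCACGTctcactagtc
Pkm (chr9:59657142-59657166, plus strand, 75 bases before the start): ccgatccggtCACGTccgcgccgca
Ldhb (chr6:142508069-142508093, minus strand, 126 bases before the start): gggggagagcGCGTGcacactccag
Egln1 (chr8:124949308-124949332, minus strand, 68 bases before the start): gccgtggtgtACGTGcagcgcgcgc
Egln3 (chr12:54204089-54204113, minus strand, 229 bases before the start): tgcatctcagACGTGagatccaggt
Car9 (chr4:43506998-43507022, plus strand, 18 bases before the start): atttccgatgCACGTacagcccgtc

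The windows of Egln3 and Pgk1, an oxygen sensor and a glycolytic enzyme, are shown whole because no annotated exon overlaps them.
Egln3 (chr12:54203875-54204124, minus strand): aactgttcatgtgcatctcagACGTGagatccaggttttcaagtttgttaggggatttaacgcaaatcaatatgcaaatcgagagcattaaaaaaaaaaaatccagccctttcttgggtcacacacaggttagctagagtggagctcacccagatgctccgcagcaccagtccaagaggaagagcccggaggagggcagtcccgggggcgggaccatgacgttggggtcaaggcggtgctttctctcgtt
Pgk1 (chrX:106186850-106187099, plus strand): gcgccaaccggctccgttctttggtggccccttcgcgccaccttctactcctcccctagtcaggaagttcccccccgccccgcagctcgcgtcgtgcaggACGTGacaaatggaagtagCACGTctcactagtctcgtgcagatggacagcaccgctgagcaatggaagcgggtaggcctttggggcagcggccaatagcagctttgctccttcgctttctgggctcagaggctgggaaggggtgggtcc
Pgk1 held 2 cores, 150 and 131 bases before its start, and Egln3 held 1. These matches are a description of the letters and say nothing of binding.

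Levels are CPM of cells summed per library, and in such sums a change in the number of expressing cells and a change in RNA per cell cannot be told apart. A member was called higher or lower when the pair of libraries held 20 counts or more, the ratio reached 2-fold and 1 lay outside its interval. Of 29 members with enough counts in tumor over early lesion, 12 were called higher, against 24.5% of all 9811 genes tested, and 1 lower, against 6.68%. Their median log2 ratio was 0.77, against 0.33 for all genes tested. The whole comparison leaned to the tumor: centred on its median gene, which moves all ratios by 0.24, the shares of all genes were 19.2% higher and 9.55% lower, and the members still counted 12 and 1. Without the cells over 10000 UMIs, 15 of 28 members were higher and 1 lower, against 13.3% and 9.35% of all genes, and 11 of the 12 members stayed higher. In luminal-like cells alone, 14 of 27 were higher and 2 lower, against 12.9% and 12.02%. With each cell thinned to 500 UMIs, 10 of 19 were higher and 1 lower, against 11.1% and 7.12%. Leaving the milk genes out of the totals kept 12 and 1, against 21.3% and 8.15%. The luminal-like cells lay in different clusters in the 2 libraries, with 322 of the 323 tumor cells in 1 cluster that held 2 lesion cells.

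**Figure D1:**
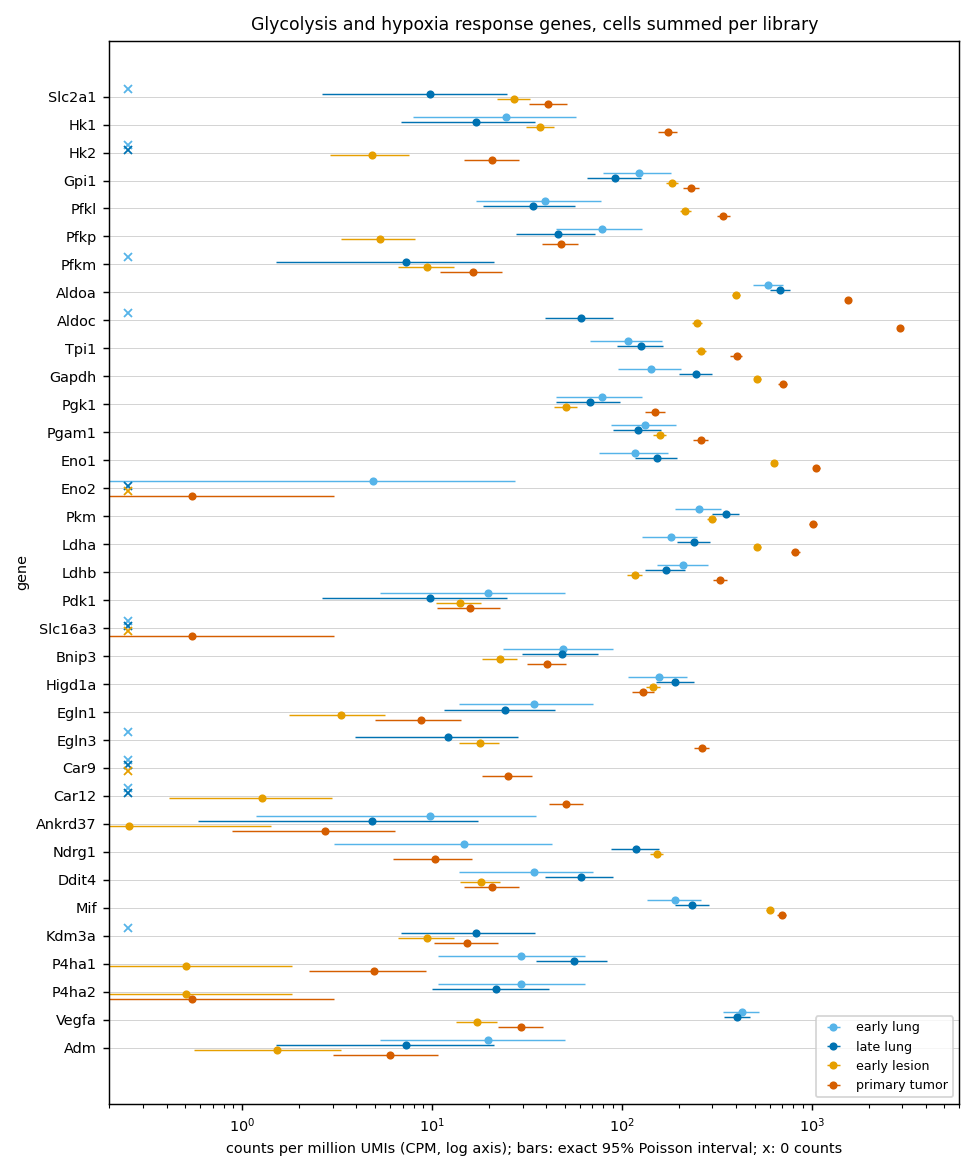
Level of each of the 35 genes in the 4 libraries, in CPM on a log axis, with cells summed per library. Points are levels, bars exact 95% Poisson intervals and crosses 0 counts. Aldoc ranges from 0 counts in the early lung to 2905 CPM in the tumor, while Vegfa is highest in both lung libraries.

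Glucose enters through the transporter encoded by Slc2a1 (GLUT1). It had 0 counts in the early lung and stood at 9.71 CPM late in the lung, 27.0 CPM in lesion cells and 41.1 CPM in tumor cells. The tumor was not called against the lesion (log2 ratio 0.61, interval 0.16 to 1.05), and without the cells over 10000 UMIs the ratio was -0.21. In luminal-like cells alone it was the second member called lower beside Ndrg1, at 13.4 CPM (6.43 to 24.7, 10 counts) in the tumor and 28.3 CPM (22.9 to 34.5) in the lesion. Slc2a1 made up 106 of 111 glucose transporter UMIs (Slc2a1 to Slc2a4) in the lesion and 75 of 76 in the tumor, while the 9 of the late lung split into 4 of Slc2a1 and 5 of Slc2a3.

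Hexokinase traps glucose in the cell by phosphorylating it. Hk1, the broadly expressed form, stood at 24.5 CPM in early lung, 17.0 CPM in late lung, 37.2 CPM in lesion and 174 CPM in tumor cells. It was called higher in the tumor than in the lesion (log2 ratio 2.23, interval 1.94 to 2.52) and was found in 16.7% of thinned tumor cells against 3.36% of lesion cells. Hk2, the form best known from tumors, had 0 counts in both lungs, 19 in the lesion and 38 in the tumor. Its ratio of 2.09 fell to 1.38 (0.14 to 2.50) without the cells over 10000 UMIs. Hk1 held 89.3% of hexokinase UMIs in the tumor and 88.5% in the lesion, a difference within the counting intervals. Gpi1, the isomerase of the next step, was at 123, 92.2, 183 and 231 CPM in early lung, late lung, lesion and tumor, and tumor over lesion was not called (log2 ratio 0.33).

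Phosphofructokinase commits sugar to glycolysis and has a liver (Pfkl), a platelet (Pfkp) and a muscle (Pfkm) form. In the early and late lung, Pfkp held 66.7% (44.7% to 84.4%) and 52.8% (35.5% to 69.6%) of the family's UMIs. In the lesion Pfkl held 93.6% (91.8% to 95.1%) and Pfkp 2.31% (1.44% to 3.51%). In the tumor Pfkl held 84.2% (81.4% to 86.8%) and Pfkp 11.7% (9.51% to 14.3%). The intervals of the lung and mammary libraries did not overlap, and the Pfkp share of the tumor lay above that of the lesion. Pfkp stood at 78.6 CPM in early lung, 46.1 CPM in late lung, 5.35 CPM in lesion and 47.6 CPM in tumor cells. Tumor over lesion was called (log2 ratio 3.13, interval 2.46 to 3.92; 3.06 without the cells over 10000 UMIs). Pfkl, at 216 CPM in the lesion and 342 CPM in the tumor, was not called (0.66, 0.51 to 0.81), and Pfkm stayed under 20 CPM in every library.

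Aldolase cleaves the phosphorylated sugar, and its C form is best known from brain. Aldoc (chr11:78322968-78327781, plus strand) had 0 counts in 185 early lung cells and stood at 60.7 CPM in late lung. It stood at 249 CPM (234 to 265) in the lesion and 2905 CPM (2827 to 2984) in the tumor, where it was the highest of the 35 genes. Tumor over lesion was 11.6-fold (log2 ratio 3.54, interval 3.44 to 3.64), 3.72 without the cells over 10000 UMIs and 3.79 in luminal-like cells alone. Of cells thinned to 1000 UMIs, 79.5% of tumor cells (74.6% to 83.8%) held an Aldoc UMI, 20.7% of lesion cells (18.3% to 23.3%), 3.80% of late lung cells and 0 of 55 early lung cells, which allows up to 5.45% by a floor of 3 cells (Clopper-Pearson upper bound 6.49%). Without thinning the shares were 84.8%, 41.7%, 1.90% and 0%. Free RNA, read from barcodes with 1 to 50 UMIs, held Aldoc at 2746 CPM in the tumor and 290 CPM in the lesion, and the part of free RNA in the shares of cells was not tested. In the late lung, 24 of the 25 Aldoc counts lay in 3 of the 6 luminal-like cells, and all 5 Egln3 counts lay in luminal-like cells too (a split looked at after the values were seen).

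Aldoa, the muscle and general form, stood at 589 CPM in early lung, 684 CPM in late lung, 399 CPM in lesion and 1546 CPM in tumor cells. It was called higher in the tumor than in the lesion (log2 ratio 1.96, interval 1.87 to 2.04; 2.46 without the cells over 10000 UMIs). Both forms were thus higher in the tumor, Aldoc by more. Each 3′ tag marks 1 molecule, so shares within a family need no length scaling. Of aldolase UMIs, Aldoc made up 0 of 120 in early lung, with a Clopper-Pearson upper bound of 3.03%, and 8.14% (5.34% to 11.8%) in late lung. It made up 38.5% (36.6% to 40.4%) in lesion and 65.3% (64.2% to 66.3%) in tumor cells. The tumor share was 60.0% without the cells over 10000 UMIs.

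**Figure D2:**
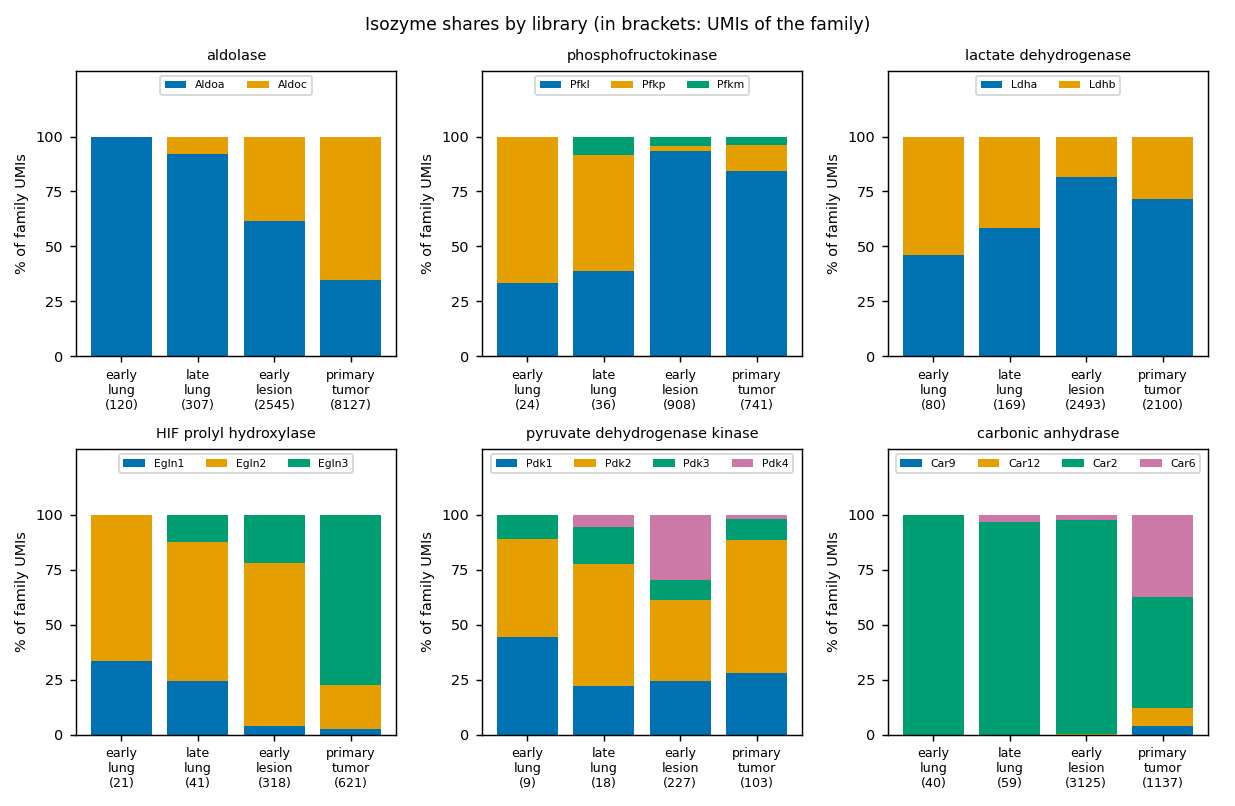
Share of each isozyme among the UMIs of 6 enzyme families, as % of family UMIs on the vertical axis, with the 4 libraries on the horizontal axis and the family's UMIs in brackets. Aldoc grows from 38.5% in the lesion to 65.3% in the tumor and Egln3 from 22.01% to 77.6%, while Pfkp holds most phosphofructokinase UMIs in both lung libraries only.

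The later steps turn triose phosphates into pyruvate and earn ATP. Pgk1, the first ATP-making enzyme, stood at 78.6 CPM in early lung, 68.0 CPM in late lung, 50.7 CPM in lesion and 150.1 CPM in tumor cells, and tumor over lesion was called (log2 ratio 1.57, interval 1.30 to 1.84). Pkm, pyruvate kinase, stood at 255, 352, 298 and 1015 CPM in the same order and was also called (1.77, 1.66 to 1.88). Both stood highest in the tumor. Triose phosphate isomerase (Tpi1) stood at 108, 126, 261 and 402 CPM, phosphoglycerate mutase (Pgam1) at 133, 121, 159 and 261 CPM and enolase 1 (Eno1) at 118, 153, 634 and 1058 CPM in that order. All 3 were higher in the tumor than in the lesion by less than 2-fold, with log2 ratios of 0.62, 0.71 and 0.74. Each passed 2-fold without the cells over 10000 UMIs, at 1.15, 1.17 and 1.18. Gapdh stood at 142 CPM in early lung, 245 CPM in late lung, 518 CPM in lesion and 705 CPM in tumor cells, and was not called in either version (0.44, and 0.72 without those cells). In the tumor cells over 10000 UMIs, Aldoa stood at 998 CPM against 2204 CPM in the other tumor cells, Eno1 at 759 against 1416 CPM and Tpi1 at 263 against 569 CPM. Slc2a1 (57.2 against 21.7 CPM), Hk2 (27.1 against 13.2 CPM) and Pdk1 (20.1 against 10.8 CPM) went the other way, and Hk1 (171 against 178 CPM) and Pfkp (47.2 against 48.2 CPM) were nearly level.

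Lactate dehydrogenase has a form named for muscle (Ldha) and one named for heart (Ldhb). Ldha stood at 182 CPM in early lung, 240.3 CPM in late lung, 518 CPM in lesion and 822 CPM in tumor cells. Tumor over lesion was not called (log2 ratio 0.67, interval 0.57 to 0.76). Ldhb, at 211, 170, 117 and 329 CPM in the same order, was called higher in the tumor (1.49, 1.31 to 1.67). Ldhb held 53.8% of the family's UMIs in early lung, 41.4% in late lung, 18.4% (16.9% to 20.0%) in lesion and 28.6% (26.7% to 30.6%) in tumor cells. Ldha, the form known as a HIF target, had the smaller ratio, and any part of HIF was not tested. The lactate exporter Slc16a3 (MCT4) had 1 UMI in all 4 libraries and the neuronal enolase Eno2 had 2. Slc16a1 (MCT1), of the wider pathway list, had 106 counts in the lesion and 2 in the tumor (-4.31, -7.69 to -2.74). Pdk1, a pyruvate dehydrogenase kinase, stayed between 9.71 and 19.6 CPM in all libraries.

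Of the 3 Egln oxygen sensors, Egln3 (chr12:54178981-54203860, minus strand) is itself a known HIF target. It had 0 counts in early lung and stood at 12.1 CPM in late lung, 17.8 CPM (13.9 to 22.5) in the lesion and 264 CPM (241 to 289) in the tumor. The tumor was 14.7-fold above the lesion (log2 ratio 3.88, interval 3.52 to 4.27; 4.22 without the cells over 10000 UMIs). Thinned cells held an Egln3 UMI in 22.8% of the tumor (18.2% to 27.8%) and 2.21% of the lesion (1.41% to 3.30%). Egln3 made up 22.01% (17.6% to 27.0%) of Egln UMIs in the lesion and 77.6% (74.1% to 80.8%) in the tumor, while Egln2 made up 73.9% and 19.8%. Egln1, the main sensor in most tissues, had 16 counts in the tumor and 13 in the lesion. Its call (1.39, 0.26 to 2.58) was not tested without the cells over 10000 UMIs, where fewer than 20 counts remained.

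Carbonic anhydrases 9 and 12 face outward and help buffer acid at the cell surface. Car9 (chr4:43506966-43513729, plus strand) had 46 counts in the tumor, 25.2 CPM (18.4 to 33.6), and 0 in the other 3 libraries, which makes it at least 33.0-fold higher in the tumor than in the lesion against a floor of 3 counts. It was found in 4.49% of thinned tumor cells (2.48% to 7.41%) and 0 of 1041 lesion cells, which allows up to 0.288% by a floor of 3 cells (Clopper-Pearson upper bound 0.354%). Car12 had 93 counts in the tumor, 5 in the lesion and 0 in both lungs (log2 ratio 5.19, interval 4.05 to 6.98). The 109 unnamed tumor cells held 85 of the 93. In luminal-like cells alone Car12 had too few counts for a call, with 8 in 6 of 323 tumor cells and 5 in the lesion. Without the cells over 10000 UMIs its ratio was 4.02 (2.51 to 6.18), and those cells held it at 77.3 CPM and the others at 19.3 CPM. Of the wider list, the cytosolic Car2 was lower in the tumor (-1.30) and the secreted Car6 higher (3.50).

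The only member called lower in the tumor than in the lesion was Ndrg1 (chr15:66929318-66969640, minus strand). It stood at 14.7 CPM in early lung, 119 CPM in late lung, 153 CPM (141 to 165) in lesion and 10.4 CPM (6.27 to 16.2) in tumor cells. Tumor over lesion had a log2 ratio of -3.84 (-4.62 to -3.22), -3.19 without the cells over 10000 UMIs and -2.13 with each cell thinned to 500 UMIs. Thinned cells held it in 15.1% of the lesion and 1.28% of the tumor. Free RNA held it at 175 CPM in the lesion and 9.53 CPM in the tumor, close to the cells, and its part in these shares was not tested. Of the 49 late lung counts, 43 lay in 1 unnamed cell of 10727 UMIs, and without the cells over 10000 UMIs the late lung stood at 12.6 CPM.

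Of the remaining hypoxia genes with enough counts, 0 were called in tumor over lesion over all cells, and all but Higd1a had a ratio above 0. Higd1a stood at 157, 192, 146 and 129.8 CPM and Bnip3 at 49.1, 48.5, 22.9 and 40.5 CPM in early lung, late lung, lesion and tumor. The mitochondrial genes Bnip3, a mitophagy receptor, and Higd1a, a respiratory chain regulator, had tumor over lesion ratios of 0.82 and -0.17. Bnip3 passed 2-fold without the cells over 10000 UMIs (1.48, 0.96 to 1.98). Mif, a cytokine gene, stood at 191 and 235 CPM in early and late lung, 602 CPM in the lesion and 697 CPM in the tumor (0.21, and -0.02 centred on the median gene). Ddit4, an mTOR inhibitor, and the histone demethylase Kdm3a stood at 0.21 and 0.71, and Vegfa at 0.77. In luminal-like cells alone, Vegfa (9 counts in the tumor, 65 in the lesion) and Kdm3a (5 and 34) had ratios below 0 and were not called. Ankrd37, P4ha1, P4ha2 and Adm had fewer than 20 counts over the lesion and the tumor together and are among the 6 members left out of that comparison, with Eno2 and Slc16a3.

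**Figure D3:**
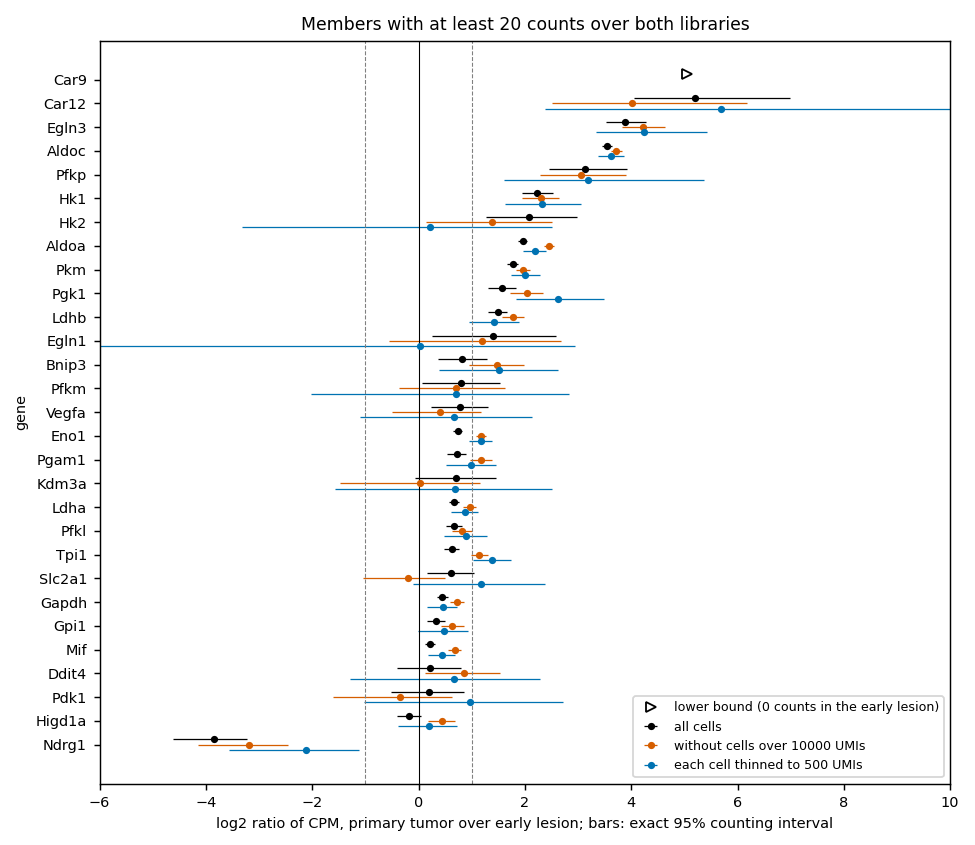
Log2 ratio of CPM, primary tumor over early lesion, for the 29 genes with at least 20 counts, over all cells, without cells over 10000 UMIs and with each cell thinned to 500 UMIs. Bars are exact 95% counting intervals and dashed lines mark 2-fold; Car9 is drawn as a lower bound. Aldoc and Egln3 lie above 2-fold in all 3 versions, Hk2 has too few counts after thinning, and Ndrg1 is the only gene below -1.

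The tumor library was not uniform in these genes. Clusters were made without the members and the wider list. The main tumor cluster (322 cells, luminal-like) held Egln3 at 357 CPM, Aldoc at 3398 CPM and Gapdh at 914 CPM. A second cluster of 86 tumor cells, unnamed, with a median of 839 UMIs and 10.8% mitochondrial UMIs, held them at 139, 2474 and 520 CPM. The same cluster held Vegfa at 92.5 CPM (8 counts) against 12.1 CPM and Slc2a1 at 80.9 CPM (7 counts) against 13.4 CPM in the main one. A further unnamed cluster, of 36 cells with a median of 8864 UMIs, included 21 tumor cells. All 109 unnamed tumor cells held 45 of the 54 Vegfa and 65 of the 75 Slc2a1 counts of the tumor. Most counts of these genes thus lay outside the main and the 86-cell cluster. Mitochondrial share and depth move with the 86-cell cluster, and their part was not tested.

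Of the 82 genes of the wider pathway list, 50 had enough counts in tumor over lesion. Of these, 10 were higher (20%, against 24.5% of all genes) and 12 lower (24%, against 6.68%), with a median log2 ratio of 0.11, beside 0.77 for the 35 members and 0.33 for all genes. The collagen lysine hydroxylases Plod2 (43 counts against 1, log2 ratio 5.96, interval 3.98 to 11.9) and Plod1 (60 against 3, 5.22, 3.81 to 7.74) led the higher genes, followed by Car6, the repressor Bhlhe40 (1.94) and the proteoglycan gene Sdc4 (1.25). Leaving out cells over 10000 UMIs gave 5 of 47 higher and 9 lower, against 13.3% and 9.35% of all genes. Thinned to 500 UMIs, 5 of 21 were higher and 3 lower, against 11.1% and 7.12%. Without those deep cells, Plod1 and Plod2 had too few counts and Sdc4 stood at 0.29. Lowest were Angptl4, a lipase inhibitor (3 counts against 467, -5.96, -8.46 to -4.62), Slc16a1, Stc1, a secreted glycoprotein (0 against 44, at least 6.82-fold lower), the pyruvate dehydrogenase kinase Pdk4 (2 against 67, -3.65) and Plin2, the lipid droplet coat (1131 against 8716, -1.84). Angptl4, Pdk4 and Plin2 are also known targets of the lipid-sensing PPAR receptors. Within its family, Pdk4 made up 29.5% (23.7% to 35.9%) of UMIs in the lesion and 1.94% (0.236% to 6.84%) in the tumor.

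Against the late lung, 18 of 30 members with enough counts were higher in the tumor, where 17.4% of all genes were, and 5 were lower, where 20.6% of all genes were. All 14 called glycolysis genes were higher, and the hypoxia genes divided into 4 higher and 5 lower. Aldoc (log2 ratio 5.55, interval 5.02 to 6.21), Egln3 (4.31, 3.21 to 6.07) and Pfkl (3.28, 2.57 to 4.21) led, with Car12 at least 6.996-fold and Car9 at least 3.46-fold higher. Vegfa (-3.77, -4.25 to -3.33), Ndrg1 (-3.49), P4ha1 (-3.45), Ddit4 (-1.55) and Egln1 (-1.50) were lower. Without the cells over 10000 UMIs, 16 of 22 were higher and 1, Vegfa, lower, against 20.1% and 19.4% of all genes. Slc2a1 (0.60) and Ddit4 (-1.03) then lost their calls, Hk2, Car12, Egln1 and P4ha1 had too few counts, and so had Ndrg1, whose ratio moved to 0.15. With each cell thinned to 500 UMIs, 12 of 19 were higher and 1 lower, against 19.4% and 19.2%.

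Early lesion over early lung gave 9 of 26 members higher, against 11.9% of all genes tested, and 3 lower, against 22.1%. Aldoc was at least 16.9-fold higher in the lesion, and Slc2a1 at least 1.83-fold. The Slc2a1 call rests on the 0.5 counts added to its 0 early lung counts, since its floor lies under 2-fold. With 5 counts added Slc2a1 (0.20) and Tpi1 (0.99) lost their calls, and 7 of 26 members were higher, against 4.73% of all genes. Ndrg1 stood at 3.15 (1.82 to 5.66), Eno1 at 2.40 (1.85 to 3.07), Pfkl at 2.38 (1.48 to 3.68), Gapdh at 1.84, Mif at 1.63, Ldha at 1.49 and Tpi1 at 1.24. Lower in the lesion were Vegfa (-4.62, -5.10 to -4.15), Pfkp (-3.89, -4.89 to -2.84) and Egln1 (-3.42, -4.81 to -1.81). The members' median was 0.51, and 0.22 with the 5 genes of 0 counts set at their bounds. It was 0.998 without the cells over 10000 UMIs and turned to -0.33 with 5 counts added. Centred on the median gene, a move of -0.39, all genes split into 17.9% higher and 16.8% lower, and the members into 10 and 3. Without the cells over 10000 UMIs the members gave 9 and 3 of 25, against 11.7% and 20.4%, and thinned to 500 UMIs 7 and 2 of 18, against 13.1% and 19.7%.

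Late lung over early lung had 2 of 20 members higher and 0 lower, against 8.70% and 3.45% of all genes; centred on the median gene these became 11.7% and 2.15%. The higher genes were Aldoc (at least 4.12-fold) and Ndrg1 (2.81, 1.38 to 5.34), both held by the few cells described above. Without the cells over 10000 UMIs, Aldoc and Gapdh (1.01, 0.38 to 1.70) were higher of 18 tested and 0 lower, against 4.32% and 4.26%. Of the 101 late lung Gapdh counts, 32 lay in the 6 luminal-like cells, 18 of them in 1 cell of 1496 UMIs. Ndrg1 then stood at -0.31 with too few counts. With each cell thinned to 500 UMIs, 0 of 12 were called in either direction, against 2.71% higher and 3.81% lower of all genes. The comparisons of the tumor with the lesion and the late lung share the tumor library, and those of the early lung share it in turn, so their values are not independent.

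Inside the lung libraries, several members differed between cell classes. Vegfa, the blood vessel growth factor (chr17:46016993-46032369, minus strand), stood at 427 CPM early and 405 CPM late in the lung, against 17.3 CPM in lesion and 29.6 CPM in tumor cells. Alveolar type 1-like cells, the thin gas-exchange cells (61 early, 93 late), held it at 1128 CPM (878 to 1427) and 1064 CPM (850 to 1315). Endothelial-like cells held 223 CPM (127 to 361) and 395 CPM (313 to 491). In the late lung 6 cells over 10000 UMIs held 73.2% of the UMIs of that class, and without such cells it held 248 CPM (139 to 409) early and 295 CPM (168 to 478) late. Alveolar type 1-like cells included none over 10000 UMIs. The cells of the joint alveolar type 2, airway secretory and ciliated class held 1 count early and 0 late. The pericyte, smooth muscle and fibroblast class held 1 and 2 counts. At both stages, with and without those cells, the intervals of alveolar type 1-like and endothelial-like cells did not overlap.

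Pfkp lay mainly in alveolar type 1-like cells as well, at 213 CPM (113 to 363) early and 188 CPM (105 to 310) late, and had 0 counts in the alveolar type 2 and airway class at both stages. Alveolar type 1-like cells held 13 of its 16 early lung counts and 15 of its 19 late ones. Ldhb was highest in the alveolar type 2 and airway class, at 549.5 CPM (340.2 to 840.0) early and 427 CPM (271 to 641) late. Of its 21 early counts in that class, 11 lay in 1 cell of 8104 UMIs. Ldhb followed in alveolar type 1-like cells at 294 CPM (174 to 465) early and 225 CPM (134 to 356) late. These intervals overlapped those of the alveolar type 2 and airway class at both stages. Ldhb was near absent from endothelial-like cells, with 3 and 1 counts. The prolyl hydroxylase of collagen P4ha1 reached 100 CPM (43.2 to 197) in late alveolar type 1-like cells. Egln1 had all 7 early lung counts in the pericyte, smooth muscle and fibroblast class, in 3 cells, with 4 of them in 1 cell. In the late lung this class held 0 of its 10 counts and endothelial-like cells held 8. Aldoa ranged from 316 to 736 CPM over the lung classes and Pkm from 167 to 466 CPM, and without the cells over 10000 UMIs from 230.5 to 736 CPM and from 183 to 466 CPM.

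**Figure D4:**
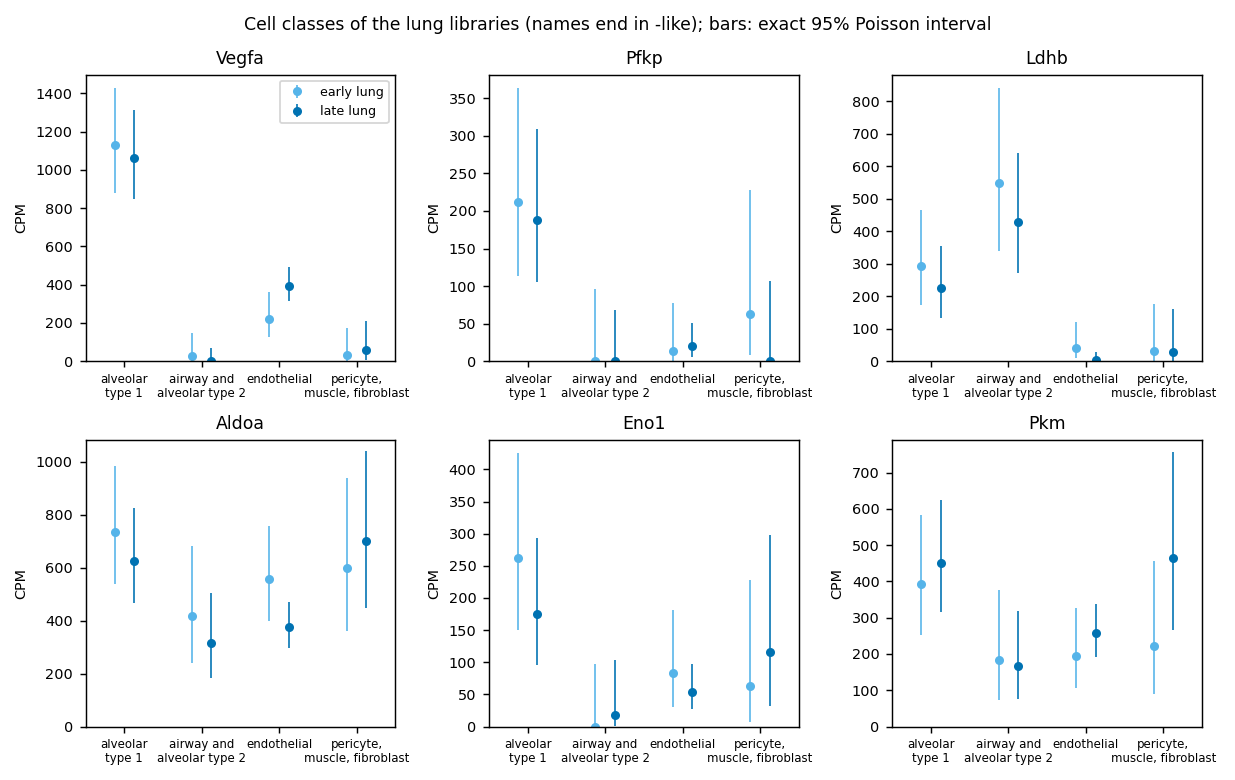
Level in CPM (vertical axis, from 0) of 6 genes in the 4 cell classes of the early and late lung libraries, with exact 95% Poisson intervals. Vegfa and Pfkp are highest in alveolar type 1-like cells and Ldhb in the airway and alveolar type 2 class, at both stages. The Ldhb intervals of these classes overlap at both stages.

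Co-expression was read over the 312 tumor cells that could be thinned to 1000 UMIs, among the 17 members found in at least 5% of them. The median Pearson correlation of their 136 pairs was 0.093, and 125 of the 136 were above 0. For pairs of all 2449 genes past the same 5% minimum the median was -0.002. Of the members' pairs, 36 exceeded 0.136, the value that 2.5% of all gene pairs exceed. The 2449 genes were not matched to the members in how often they were found. The members were found in 5.45% (Bnip3) to 79.5% (Aldoc) of the cells, and the part of this in the difference was not tested. These are weak correlations across cells of 1 library that share its free RNA and preparation, and they are a description. The closest pairs were Eno1 with Aldoa (0.30), Eno1 with Pkm (0.29), Ldha with Aldoa (0.26) and Pkm with Aldoc (0.25). Against the sum of the other members, Eno1 (0.39), Pkm (0.36), Aldoa (0.33), Aldoc (0.28) and Ldha (0.27) were highest, and Gpi1 (0.10), Bnip3 and Mif lowest. Egln3 stood at 0.22. In 1041 lesion cells, the median over 91 pairs of 14 members was 0.013. Thinned lesion cells held a median of 4 member UMIs against 12 in tumor cells, and the part of this difference was not tested.

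Among genes outside both lists, those closest to the summed members were the actin gene Actg1 (0.30), the metallothionein Mt1 (0.26), the phosphatase subunit Ppp1cb (0.26), Eno1b (0.25), Papss1 (0.25), the malate dehydrogenase Mdh1 (0.24), Atp5a1, Ubb, Hdlbp and Anxa5. Eno1b is a near copy of Eno1, with 320 counts in the lesion and 317 in the tumor, and reads of the 2 may have been split between them. Reads of Aldoa, Gapdh, Pgk1, Pgam1, Ldha and Mif may likewise have been shared with pseudogenes, so their levels are uncertain to that extent.

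**Figure D5:**
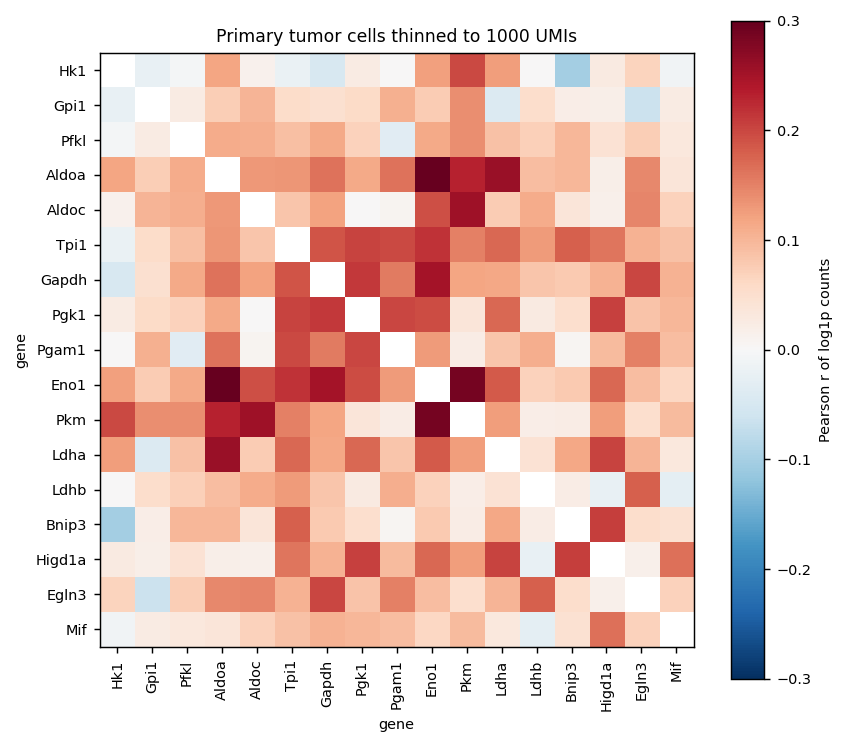
Pearson correlation of log1p counts between 17 member genes over 312 primary tumor cells thinned to 1000 UMIs; both axes list the genes in pathway order and colour gives r. Most cells of the map are above 0, with the strongest values among Aldoa, Eno1, Pkm and Ldha.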

How the data were processed

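The authors deposited UMI counts per gene and barcode for each of 4 libraries, per the file headers, with all 737280 kit barcodes listed and no normalization; per the submitters' processing notes reads were placed on mm10, while neither aligner nor annotation is given in the sources used here, so strand handling is unknown. Depth per library and cell filters stand in the report. Member genes and lists were chosen with earlier results of these data known. Counts were summed per library and compared as log2 ratios of CPM after adding 0.5 counts, with exact Poisson intervals; shares carry Clopper-Pearson intervals. Intervals and floors of 3 counts cover counting error only. With 1 library per group no test was possible. Named members are those at 50 CPM or more in tumor or lesion; lower ones, such as Car9 and Pfkp, were described after their values were seen. The wider pathway list is given by counts and the 5 highest and 5 lowest ratios by the interval bound nearest 1. Cells were clustered without these genes (scanpy 1.11.5, 2000 variable genes, 30 components, 15 neighbours, Leiden resolution 1.0) and named from 15 marker lists; no doublet caller was run, and names were rebuilt here. Positions are from GENCODE M21. A cluster took a list's name when over 50% of its markers, and at least 3, lay within 4-fold of their highest cluster and in 10% of the cells. Scripts were tested on simulated data. 1 gene of the wider list is not reported here. Alternatives are in the closing section.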

Additional observations from a re-analysis of the deposited data

Results flagged for a closer look

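Over all cells, Ndrg1 went opposite ways in contrasts of the same kind. Late over early, its log2 ratio was -3.84 at the primary site (tumor over lesion) and 2.81 in the lung. Primary site over lung, it was -3.49 at the late stage and 3.15 at the early stage. The difference was not tested, because each group is 1 library, and the 4 ratios come from the same 4 libraries. Of the 49 late lung counts 43 lay in 1 cell of 10727 UMIs. Without the cells over 10000 UMIs the directions were no longer opposite between the sites: late over early lung stood at -0.31, with too few counts for a call, beside -3.19 for tumor over lesion, and tumor over late lung stood at 0.15 beside 3.02 for lesion over early lung.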

How the results depend on the processing

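No paired analysis was possible because each group is 1 library. Counts of members called and medians were recomputed with other cell filters, without cells over 10000 UMIs, thinned to 500 UMIs, with other totals and centring, with 5 added counts and other count minimums. Isozyme shares were recomputed under the cell filters, without those cells and thinned, and correlations with another seed, without those cells, at most 10% mitochondrial UMIs, unthinned, by rank and in luminal-like cells. Lung class levels without those cells, in the report, were added after seeing the data. Here the same meant within a tolerance and not unchanged. For counts of members the larger was at most 3/2 of the smaller, and other values lay in an interval around the main value. Thus 18 members higher in tumor over late lung in the main setting and 12 after thinning counted as the same. So did 12 and 15 in tumor over lesion, over all cells and without cells over 10000 UMIs. By these rules 254 of the recomputed member counts, medians, shares and correlations stayed the same, 20 moved and 1 reversed. Ratios of single genes were recomputed as well, and a called gene counted as the same while its call held. Of these ratios 489 stayed the same, 30 moved, 11 lost a call and 8 gained one. All that moved or gained a call were in tumor over lesion. In tumor over lesion the median was 0.54 after centring, and 2 of 27 members were lower in luminal-like cells, against 12.02% of all genes. In tumor over late lung, lower members numbered 1 of 22 without cells over 10000 UMIs, against 19.4% of all genes. They numbered 1 of 19 after thinning, against 19.2%, and 3 of 23 at a minimum of 50 counts, against 18.3%. In lesion over early lung the median turned to -0.33 with 5 added counts (the cause was not tested). Lower members there numbered 1 of 22 at 50 counts, against 19.3% of all genes. At a minimum of 1 count they numbered 7 of 33, against 21.9%. In late over early lung, higher members numbered 4 of 18 at 1000 UMIs per cell, against 12.2% of all genes. They numbered 0 of 12 after thinning, against 2.71%, and 1 of 13 at 50 counts, against 7.2%. The medians were 0.46 at 1000 UMIs and 0.53 without cells over 10000 UMIs. The tumor share of Aldoc was 60.0% without cells over 10000 UMIs and 62.0% thinned, of Hk2 6.92% and 4% and of Ldhb 25.7% thinned. The Pfkm share of the late lung and the Eno2 shares of early lung and tumor were 0 thinned. Median pair correlations ranged from 0.080 to 0.106. Depth limits the lung libraries most, where 1 count is 4.91 CPM in the early lung.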
